A study of Rattus norvegicus with 30 samples.

Results

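Heat shock proteins are chaperones, which bind unfolded stretches of other proteins and keep them from clumping. The 10 genes described here encode cytosolic and small heat shock proteins and a few close partners, and were taken by name from the deposited tables, all rows of a name. They were represented by 14 rows in each table, of 27408 rows at 8 weeks, 27383 at 21 weeks and 26553 at 78 weeks, and by 19 of the 41012 probes on the array. The 3 tables together held 24752 gene names.

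Whole hearts came from untreated Fischer 344 rats, an inbred strain, of both sexes at 8, 21 and 78 weeks of age. Each of the 6 groups of sex and age held 5 rats, with 1 heart and 1 Agilent one-colour array per rat. The animals shared 1 breeding colony, diet and light cycle, were killed with carbon dioxide, and were untreated in all groups. The study asked how the sexes differ at each age, and the 3 ages were processed in different batches.

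Hspa1b and its near-identical neighbour Hspa1a encode the stress-inducible form of Hsp70, whose transcription is driven by heat shock factor 1 (HSF1) when unfolded protein builds up. Dnajb1 encodes the Hsp40 co-chaperone that stimulates the ATPase of Hsp70, and Hsph1 encodes Hsp110, which exchanges its nucleotide. Hspb1 (Hsp27) is a small heat shock protein that is also induced by stress. Hspa8 is the constitutive Hsp70 of the cytosol, and Hspa5 (BiP) is the Hsp70 of the endoplasmic reticulum, induced by unfolded protein there. Hspb6, Hspb7, Hspb8 and Cryab are small heat shock proteins abundant in heart and skeletal muscle, where Cryab and Hspb7 associate with the myofibrils and Hspb8 works with Bag3 in the removal of damaged proteins. Hspa1b, Dnajb1, Hsph1 and Hspb1 are called inducible below, and the other 6 constitutive.

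Not every row measured what its name says. The bright row named Hspa1b was measured by a probe that the scanner files name Hspa1a, printed on 10 spots, and its second row, measured by the probe designed for Hspa1b, was well above background on 0 of 30 arrays. Values given for Hspa1b below are therefore those of the bright row, and its assignment between the paralogs Hspa1a and Hspa1b is uncertain. The first 30 bases of the 60-base probes are shown for the genes on which the results turn, with the position that the scanner files give for the whole probe (rat build rn3).
Hspa1b, bright row (chr20:3958091-3958150, plus strand): ctcgtgggttttttatatattcaaattaag
Hspa1b, dim row (chr20:3958509-3958568, plus strand): tgggttttcagcgcagttatgcagaaaatg
Hspa1a, second probe (chr20:3957065-3957124, plus strand): gacttcttcaacgggcgcgacctgaacaag
Dnajb1 (chr19:26218861-26218920, minus strand): aaggatacagtccttttgaattttgcacag
Hsph1 (chr12:5809732-5809791, plus strand): gaaatacaaccacatagatgaatctgaaat
Hspb7, brightest probe (chr5:160324324-160324383, plus strand): attcgagcacgtcgtcacccacacacagaa
Hspb7, second probe (chr5:160322899-160322958, plus strand): ctacgagtttactgtggacatgagagactt
Hspb8 (chr12:41277838-41283987, plus strand): aagaaggtgggattgtctccaagaacttca
The Hspb8 stretch spans 6150 bases of the genome, so the 60 bases of this probe are not contiguous in the genome. No annotation of this build was used, so the exon or UTR in which a probe lies is not given here.

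Hspb1, Hspb7 and Hspb8 each had a second, dimmer row, whose probe lay on the strand opposite to the bright one by the same coordinates. The Hspa8 row averaged 4 probes that differed by up to 8.32 log2 units in level, and whose deviations from the group means barely ran together (Pearson r of -0.03 to 0.20 with the brightest over 30 arrays). The 2 Hspb7 probes on the gene's strand ran together (r = 0.95), as did both Dnajb1 probes (r = 0.85). Of the 19 probes, 17 were well above background on all 30 arrays, and Cryab was saturated on 6 of them, so its highest values are lower bounds.

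Heart muscle markers were well above background on all arrays for 8 of 8 genes, adipocyte markers for 3 of 5 and skeletal muscle markers for 2 of 8. Myod1 of skeletal muscle and Lep of fat were so on none. Spots well above background ranged from 17182 to 24290 per array, and the lowest counts were in 21-week males (median 19602, against 21527 in 21-week females). Of the 30 arrays, 2 were at odds with their labels: 78-week female replicate 2 had Y-linked Ddx3y and Eif2s3y at male levels, and 78-week male replicate 3 had both at female levels. The 78-week sex differences of single genes and the sex by age differences below are given on all arrays and again without these 2.

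At 8 weeks the sexes were not separated for any heat shock protein. Table values are ratios to the 75th percentile of the array, and differences are log2 of females over males. In females Hspa1b was 0.466, 0.460, 0.435, 0.703 and 0.359, and in males it was 0.400, 0.475, 0.443, 0.432 and 0.308. Apart from female replicate 4, the rats of both sexes filled the same range. The log2 difference was 0.21 (SE 0.18, limma adjusted p = 0.941). Over the 10 brightest rows, 1 per gene, differences lay between -0.02 and 0.21. Of the 14 rows, 0 passed an adjusted p of 0.05 in limma (background 0.102% of all rows), 0 an unadjusted p of 0.05 (background 5.74%), and 0 had groups that did not overlap (background 1.41%).

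At 21 weeks Hspa1b stood at higher values in females than in males without passing adjustment. The females had 0.677, 0.541, 2.62, 0.832 and 0.626, and the males 0.334, 0.199, 0.311, 0.334 and 0.204. Every female was above every male, and female replicate 3 was far above the other females. The difference was 1.69 on the log2 scale (SE 0.40, 3.24-fold, 95% interval 0.78 to 2.61), with an unadjusted p of 0.00148 and an adjusted p of 0.246 in limma. The exact permutation test over the 10 rats gave p = 0.00794 (two-sided), the smallest that 5 against 5 allows. Without female replicate 3 the difference was 1.31 (limma adjusted p = 0.131), and over all alternatives the adjusted p ranged from 0.103 to 0.495.

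The second Hspa1a probe, which shares no spot with the bright row, was named Hspa1a in the tables. At 21 weeks it was 0.281, 0.284, 0.723, 0.327 and 0.196 in females and 0.150, 0.0988, 0.171, 0.208 and 0.118 in males. All but 1 female exceeded the highest male, and female replicate 3 was again the highest. The log2 difference was 1.18 (SE 0.33, 2.26-fold, limma adjusted p = 0.268, exact permutation p = 0.0159).

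Both co-chaperones of Hsp70 leaned the same way at 21 weeks. Dnajb1 was 0.833, 0.824, 1.30, 0.935 and 0.694 in females and 0.660, 0.672, 0.666, 0.610 and 0.636 in males. The lowest female was above the highest male. Females over males gave 0.47 on the log2 scale (SE 0.17, 1.38-fold, limma adjusted p = 0.280). This row averaged 2 probes, which differed on scanner values (log2). The brighter probe ran from 1.24 to 2.03 in females and from 0.61 to 0.85 in males. The other Dnajb1 probe ran from -0.85 to 0.15 in females and from -0.86 to -0.44 in males, so the sexes overlapped. Its means were -0.42 in females and -0.62 in males. Hsph1 was 0.650, 0.824, 0.794, 0.586 and 0.636 in females and 0.560, 0.381, 0.587, 0.504 and 0.314 in males. Here the groups touched, as female replicate 4 was level with the highest male. The log2 difference of Hsph1 was 0.60 (SE 0.20, 1.52-fold, limma adjusted p = 0.277).

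Hspa5 was the constitutive gene that shared this separation. It was 66.1, 77.8, 78.9, 66.7 and 77.9 in females and 60.6, 50.8, 58.7, 62.4 and 61.3 in males. The groups did not overlap, but the gap between them was small. This was a log2 difference of 0.32 (SE 0.12, 1.25-fold, limma adjusted p = 0.283). Hspb6 ran the other way, with 33.7, 40.6, 32.9, 36.2 and 30.9 in females and 37.7, 47.7, 41.9, 38.0 and 49.7 in males. Its groups overlapped through female replicate 2. The log2 difference was -0.30 (SE 0.13, limma adjusted p = 0.312), and it was 0.28 after normexp background correction.

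Of the 14 rows at 21 weeks, 0 passed the adjusted p of 0.05 (background 0.0511%). An unadjusted p under 0.05 was found for 5 rows (background 15.9%), and 3 rows had groups that did not overlap (background 4.05%). Among the 4 inducible genes the median difference was 0.53 and the values ran from -0.01 for Hspb1 to 1.69 for Hspa1b. Among the 6 constitutive genes the median was -0.27, from -0.43 for Cryab to 0.32 for Hspa5, while the median over all rows was -0.14. The interval of the Hspb1 difference, -0.36 to 0.34, overlapped those of Dnajb1 and Hsph1, and the genes were not tested against each other.

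**Figure D1:**
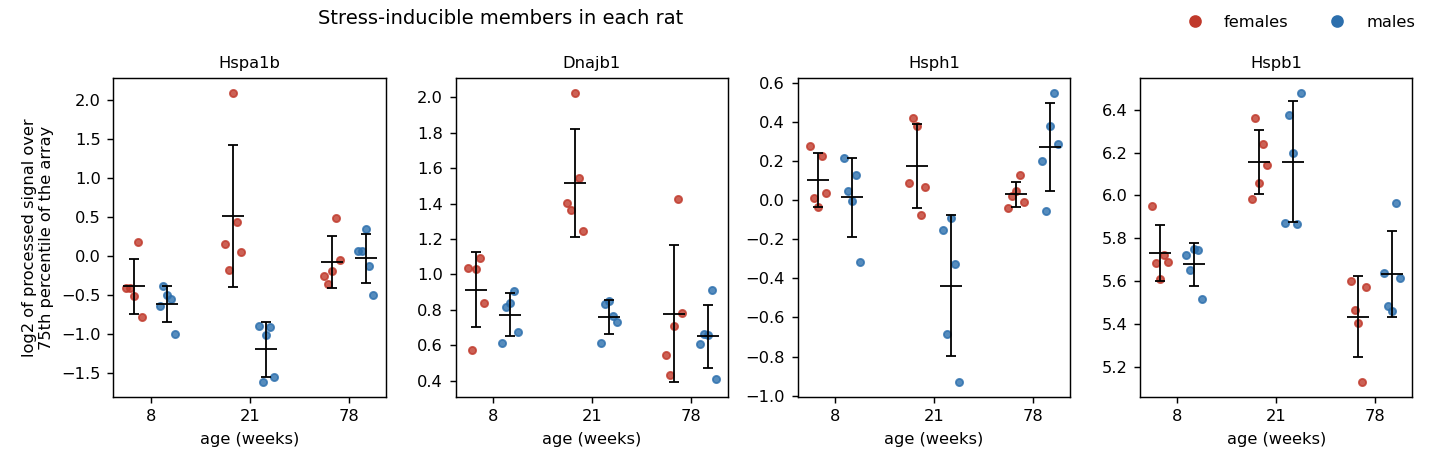
Log2 of the processed signal over the array's 75th percentile (y axis) for the bright probe of Hspa1b, Dnajb1, Hsph1 and Hspb1 in each rat, by age in weeks (x axis). Points are rats, red for females and blue for males, and bars are means ± SD (n = 5). At 21 weeks the female points of Hspa1b and Dnajb1 lie above all male points, while those of Hspb1 do not.

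The arrays of the 21-week males differed from those of the females in other ways, and their part in these differences was not tested. The 75th percentile of processed signal, to which all values are relative, had a median of 72.1 in 21-week males and 105.9 in 21-week females, and was lowest in male replicate 2 (39.9). Summed endothelial markers (5 genes) ran from 52.9 to 105 in males and from 98.2 to 136 in females, heart muscle markers (8 genes) from 3831 to 8355 and from 3280 to 4654, and atrial markers (4 genes) from 1653 to 2642 and from 1353 to 1794. Macrophage and leukocyte markers (6 genes) ran from 124 to 223 in males and from 109 to 138 in females, red blood cell markers (5 genes) from 51.9 to 96.1 and from 38.1 to 62.4, and fibroblast markers (5 genes) from 225 to 265 and from 199 to 259. Adipocyte markers (5 genes, Lep not above background) ran from 34.4 to 79.1 in males and from 19.97 to 114 in females, and skeletal muscle markers (8 genes, Myod1 not above background) from 1.07 to 2.50 and from 1.02 to 22.7. The ranges of the sexes overlapped for each of these lists. In whole heart RNA, fewer cells of a type and less RNA per cell cannot be told apart.

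Slides held both sexes of an age, so the comparison can be made within each slide. On the 3 slides of 21-week arrays the log2 difference of Hspa1b was 1.24, 2.22 and 1.60. That of Hspa5 was 0.38, 0.29 and 0.33. Position on the slide followed sex (females on positions 2 and 4, males on 1 and 3), so sex and position cannot be told apart.

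At 78 weeks the separation of the 21-week rats was not seen. Hspa1b was 0.475, 0.452, 0.502, 0.796 and 0.560 in females and 0.608, 0.613, 0.751, 0.520 and 0.417 in males. The values of both labelled sexes were mixed, with 1 rat of each label near the top. The male of these, replicate 3 (0.751), was 1 of the 2 arrays at odds with their labels, with Ddx3y and Eif2s3y at female levels. The log2 difference was -0.07 (SE 0.19, limma adjusted p = 0.965), and 0.12 on the 8 arrays that matched their labels (adjusted p = 0.899).

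Hsph1 at 78 weeks was 0.553, 0.592, 0.596, 0.622 and 0.577 in females and 0.669, 0.565, 0.763, 0.832 and 0.721 in males. The females were tightly grouped, and male replicate 2 fell among them. The difference came to -0.26 (SE 0.11, unadjusted p = 0.0432, adjusted p = 0.856 in limma), and -0.21 without the 2 arrays (adjusted p = 0.718). Of the 14 rows, 0 passed the adjusted p of 0.05 at 78 weeks (background 0%), 1 an unadjusted p of 0.05 (background 5.65%) and 0 had groups that did not overlap (background 0.900%). With the 2 arrays left out, 9 rows of the whole table passed, none of them a bright row of the 10 genes.

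**Figure D2:**
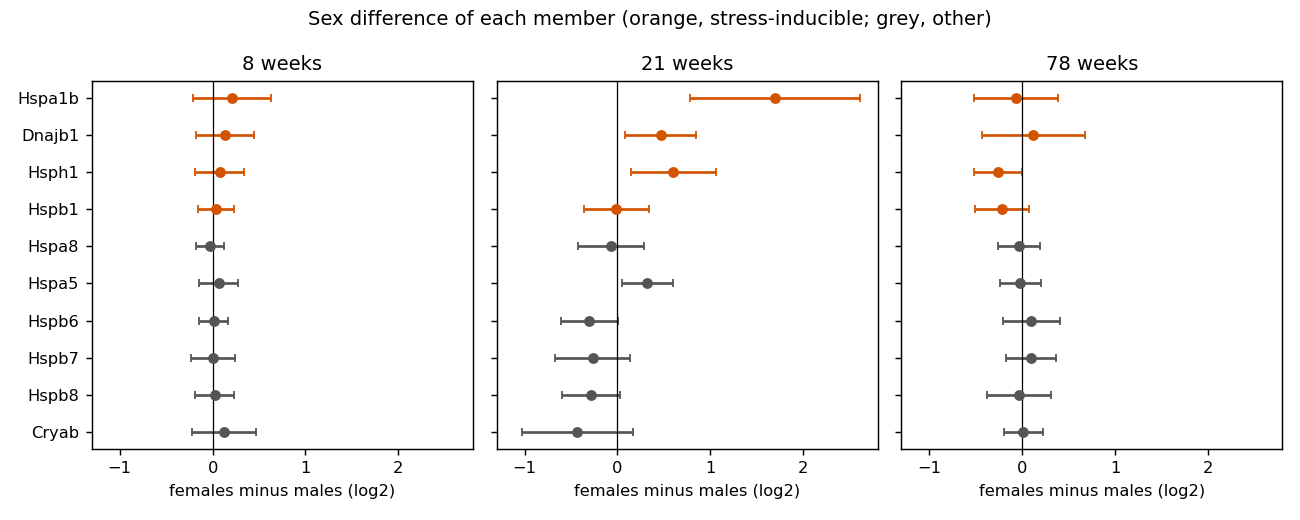
Log2 of females over males (x axis) for the bright row of each gene (y axis) at 8, 21 and 78 weeks, with 95% intervals (n = 5 per sex). The intervals use the SE from limma and a t distribution with 8 degrees of freedom, not limma's own. Hspb6 at 21 weeks, with an unadjusted p of 0.0480 in limma, therefore has an interval that includes 0. All arrays are included. Inducible genes are orange and constitutive genes grey. At 21 weeks Hspa1b, Dnajb1, Hsph1 and Hspa5 have intervals above 0 before adjustment for the number of rows tested, and at 8 weeks no gene does. At 78 weeks the interval of Hsph1 lies just below 0 (-0.52 to -0.0008), also before adjustment.

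Whether a sex difference changed with age was tested on the 30 arrays together, on scanner values scaled to each array's 75th percentile. For Hspa1b the difference at 21 weeks exceeded that at 8 weeks by 1.48 log2 units (SE 0.42, limma adjusted p = 0.295). The step from 21 to 78 weeks was -1.75 (SE 0.42, unadjusted p = 0.000301, adjusted p = 0.250). That of Hsph1 was -0.86 (SE 0.21, limma adjusted p = 0.250) and that of Dnajb1 -0.63 (SE 0.23, limma adjusted p = 0.302). On the 28 arrays that matched their labels these 3 steps were -1.59, -0.83 and -0.54 (limma adjusted p = 0.247, 0.240 and 0.400). The Dnajb1 steps are those of its brighter probe. On all arrays its other probe gave -0.05 from 21 to 78 weeks (SE 0.35, limma adjusted p = 0.947). None of the 19 probes passed adjustment in any of these comparisons, where 0%, 0.00244% and 0.00244% of all probes passed for 78 against 8, 21 against 8 and 78 against 21 weeks. At an unadjusted p of 0.05 the backgrounds were 2.34%, 16.5% and 12.7%.

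On that common scale the 6 groups of Hspa1b can be put in order. Females of 21 weeks had the highest mean, 0.50 ± 0.91 (SD, n = 5, log2). Males and females of 78 weeks followed at -0.03 ± 0.31 and -0.08 ± 0.34, and on the 78-week arrays that matched their labels at -0.13 ± 0.27 and -0.0077 ± 0.34 (n = 4 each), which turned their order. Next were females and males of 8 weeks at -0.39 ± 0.35 and -0.62 ± 0.24. Males of 21 weeks were lowest at -1.20 ± 0.36. Each neighbouring pair in this order differed by less than the larger of its 2 SDs, except for males of 8 and 21 weeks. With both sexes together, no pair of ages passed adjustment for Hspa1b. Its largest age difference was 0.44 for 78 against 8 weeks (SE 0.20, limma adjusted p = 0.149).

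The ages were on different slides but for 1 slide with 8-week and 78-week arrays, and all 21-week arrays were on slides of their own, so age and batch cannot be told apart. Age differences are therefore differences between these sets of arrays. Over the 14867 probes well above background on all arrays the median difference was -0.01 for 78 against 8 weeks, 0.15 for 21 against 8 weeks and -0.15 for 78 against 21 weeks, all on the log2 scale.

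Between 8 and 78 weeks Hspb7 and Hspb8, both constitutive small heat shock proteins, passed the test. Hspb7 ran from 4.03 to 4.54 in the 10 rats of 8 weeks (median 4.34) and from 4.46 to 5.05 in the 10 rats of 78 weeks (median 4.77). The ranges overlapped only slightly, with 7 older rats above every younger rat. Hspb7 was 0.43 higher at 78 weeks (SE 0.10, 1.34-fold, limma adjusted p = 0.00398). Its second probe on the same strand gave 0.39 (SE 0.09, adjusted p = 0.00437 in limma) and the probe on the opposite strand 0.47 (SE 0.12, adjusted p = 0.0101 in limma).

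Hspb8 ran from 2.44 to 2.87 at 8 weeks (median 2.66) and from 2.71 to 3.51 at 78 weeks (median 2.95). All 10 older rats were above the younger median, and 8 were above the highest younger rat. Hspb8 was 0.35 higher at 78 weeks (SE 0.09, 1.27-fold, limma adjusted p = 0.00876), and its dimmer probe on the opposite strand 0.55 higher (SE 0.11, adjusted p = 0.00112 in limma). On the 1 slide that held both ages (2 arrays of each) the difference was 0.45 for Hspb7 and 0.44 for Hspb8. With only those 78-week arrays that were scanned on the day of the 8-week arrays it was 0.48 and 0.27. After normexp background correction it was -0.08 and -0.09, and neither passed. Markers of several cell types moved between the same arrays. Summed fibroblast markers ran from 355 to 441 at 8 weeks and from 158 to 277 at 78 weeks, without overlap, and 1 of 11 fibroblast probes was higher and 5 lower, among them Col3a1 (-1.49, limma adjusted p = 1.16e-10) and Col1a1 (-1.74, limma adjusted p = 1.66e-10). Probes higher at 78 weeks were 3 of 15 for macrophages and leukocytes, 2 of 19 for heart muscle (Myh6 0.53, Nppa 0.45), 2 of 6 for atria, 2 of 8 for red blood cells (Hbb 0.53), 1 of 6 for adipocytes (Cfd 1.29) and 1 of 9 for skeletal muscle, with 0 lower in each of these lists, and 0 of 9 endothelial probes were higher and 3 lower. Their part in the differences of Hspb7 and Hspb8 was not tested.

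**Figure D3:**
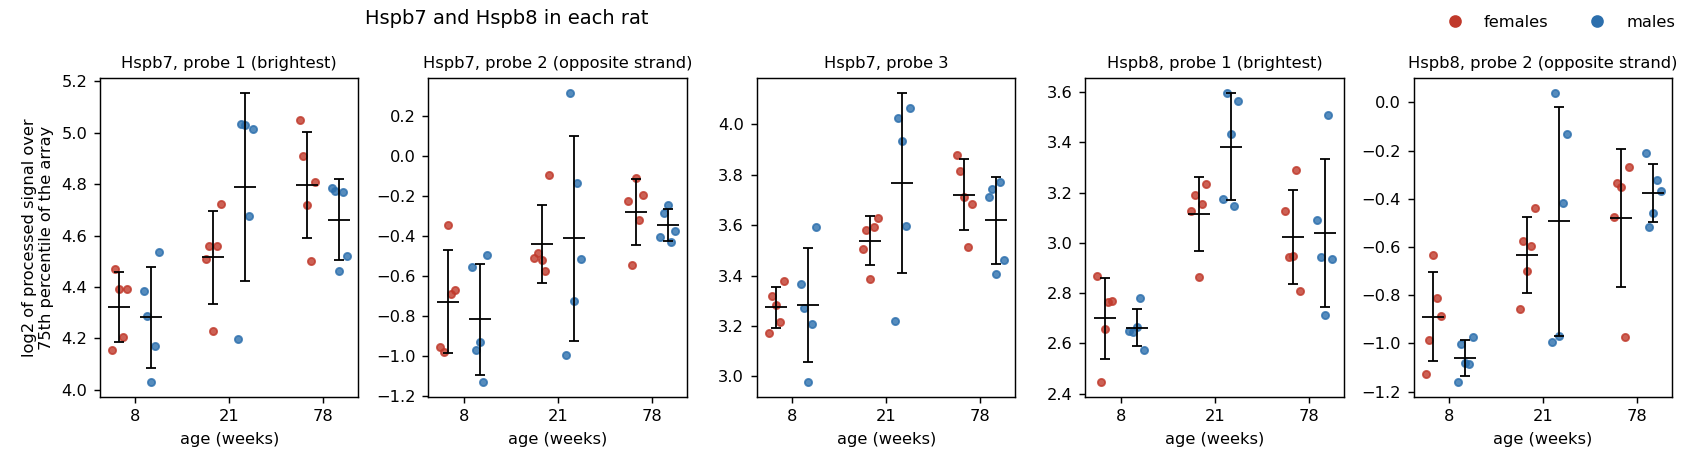
Log2 of the processed signal over the array's 75th percentile (y axis) for the 3 probes of Hspb7 and the 2 of Hspb8 in each rat, by age in weeks (x axis). Points are rats (red females, blue males) and bars means ± SD (n = 5). The points of 78 weeks lie mostly above those of 8 weeks in all 5 panels.

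The other genes did not pass for 78 against 8 weeks. Hspa1b had a difference as large, 0.44 (SE 0.20, limma adjusted p = 0.149), and 0.80 on the slide that held both ages. Hspb1 had -0.18 (SE 0.08, limma adjusted p = 0.162), Cryab 0.26 (SE 0.13, limma adjusted p = 0.164), Dnajb1 -0.13 (SE 0.11, limma adjusted p = 0.415) and Hsph1 0.09 (SE 0.10, limma adjusted p = 0.557). With median signal, not background-subtracted, Cryab (0.25, limma adjusted p = 0.0326) and Hspb1 (-0.23, limma adjusted p = 0.0284) passed as well. By probe, 0 of 7 inducible and 5 of 12 constitutive probes were higher and 0 of 19 lower. Of all probes 5.94% were higher and 4.89% lower. The 5 were all probes of Hspb7 and Hspb8, those on the opposite strand included. Counted by bright probe, 0 of 4 inducible and 2 of 6 constitutive genes were higher.

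At 21 against 8 weeks most of the probes of these genes were higher, as were many on the array. Of 7 inducible probes 5 were higher, of 12 constitutive probes 10, and none was lower, beside backgrounds of 41.5% higher and 15.2% lower. One of the 5 was the dim Hspa1b probe (0.68), which was well above background on 0 of 30 arrays. Counted by bright probe, 2 of 4 inducible and 5 of 6 constitutive genes were higher. Cryab was 0.57 higher (SE 0.13, limma adjusted p = 0.000692), Hspb8 0.56 (SE 0.09, limma adjusted p = 1.21e-05), Hspb1 0.45 (SE 0.08, limma adjusted p = 0.000126) and Hspb6 0.44 (SE 0.08, limma adjusted p = 6.62e-05). Hspa5 and Hsph1 were not called, at -0.06 and -0.19. After quantile normalization Hspb8 still passed, at 0.45, while Hspb1 had 0.15, Hspb6 0.15, Hspb7 0.15, Dnajb1 0.26, Hspa8 0.00 and Cryab -0.02, none of which passed, and Hspa5 had -0.39 (limma adjusted p = 0.000481), which did. After normexp no gene passed for 21 against 8 weeks, with Hspb8 at 0.14 (limma adjusted p = 0.708). Of the marker probes, 0 of 9 endothelial were higher and 8 lower, and of 11 fibroblast probes 3 were higher and 7 lower. Of 19 heart muscle probes 11 were higher and 8 lower, and of 8 red blood cell probes 4 and 1. Higher were also 5 of 6 atrial, 6 of 15 macrophage and leukocyte, 3 of 6 adipocyte and 2 of 9 skeletal muscle probes, with 0 lower in each. Their part was not tested.

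At 78 against 21 weeks the bright probe of Hspb1 was lower. It ran from 5.87 to 6.48 at 21 weeks (median 6.17) and from 5.13 to 5.97 at 78 weeks (median 5.53). Of the 10 old rats 9 were below every 21-week rat. Hspb1 fell by 0.62 on the log2 scale (SE 0.08, limma adjusted p = 1.59e-06), and its opposite-strand row gave -0.06 (SE 0.16, limma adjusted p = 0.786). Dnajb1 fell by 0.43 (SE 0.10, limma adjusted p = 0.00205) and by 0.79 on its other probe (SE 0.16, limma adjusted p = 0.000377). By sex, the means of the brighter probe went from 1.52 to 0.78 in females and from 0.76 to 0.65 in males. Those of the other probe went from -0.42 to -1.22 in females and from -0.62 to -1.37 in males. Hspb6 fell by 0.28 (SE 0.08, limma adjusted p = 0.00507), and Hspa8 fell by 0.28 (SE 0.07, limma adjusted p = 0.00181). With both sexes together Hsph1 was higher by 0.27 (SE 0.10, limma adjusted p = 0.0301). That call was lost on leaving out, in turn, any of 6 arrays (0.22 to 0.26). These were 21-week female replicates 4 and 5, 21-week male replicates 2 and 5, and 78-week male replicates 3 and 4. The sexes moved in opposite directions. From 21 to 78 weeks the Hsph1 means went from 0.18 to 0.03 in females and from -0.44 to 0.27 in males. Of 7 inducible probes 1 was higher and 4 lower, the dim Hspa1b probe (-0.41) among the 4. Of 12 constitutive probes 0 were higher and 4 lower, where 14.0% of all probes were higher and 18.3% lower. Counted by bright probe, 1 of 4 inducible genes was higher and 2 lower, and of 6 constitutive genes 0 and 2. After quantile normalization Hspb1 had -0.33, Dnajb1 -0.41 and Hsph1 0.27, all of which passed, while Hspa8 had 0.04 and Hspb6 0.00, neither of which did, and Hspa5 (0.27, limma adjusted p = 0.0107) and Hspb7 (0.28, limma adjusted p = 0.0158) gained a call. With median signal the calls of Hspa8 (-0.24) and Hsph1 (0.14) were lost and Cryab (-0.20, limma adjusted p = 0.0487) gained one. After normexp none of the 10 genes passed, with Hspb1 at -0.64 (limma adjusted p = 0.819) and Dnajb1 at -0.32 (limma adjusted p = 0.586). Of the marker probes, 5 of 9 endothelial were higher and 1 lower, and 3 of 11 fibroblast were higher and 1 lower. Of 19 heart muscle probes 8 were higher and 6 lower, of 6 atrial 0 and 2, and of 15 macrophage and leukocyte 3 and 2. Of 8 red blood cell probes 1 was higher and 1 lower, of 6 adipocyte 0 and 1, and of 9 skeletal muscle 1 and 0. Their part was not tested.

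**Figure D4:**
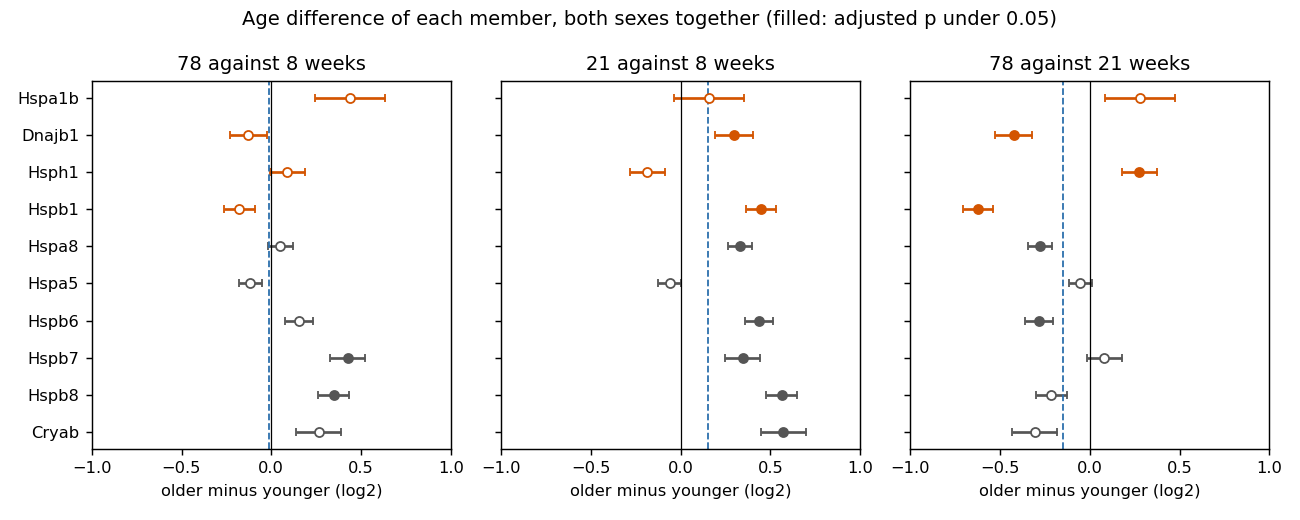
Older minus younger, log2 (x axis), for the bright probe of each gene (y axis) in the 3 pairs of ages, both sexes together, with standard errors from limma (30 arrays). Orange marks inducible and grey constitutive genes, filled points have an adjusted p under 0.05, and the dashed line is the median of the 14867 bright probes. Between 8 and 78 weeks the filled points are Hspb7 (0.43) and Hspb8 (0.35).

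Among rats of one group Hspa1b varied with Dnajb1. Over the 30 arrays, after removing the mean of each group, Pearson's r was 0.67 and Spearman's rho 0.57. A higher r with Hspa1b was found for 0.0122% of all probes, the Hspa1b probe itself included. The second Hspa1a probe had r = 0.81 (rho 0.74). Without the 2 arrays on which Hspa1b was farthest from the median, both of 21-week females, r was 0.56 for Dnajb1 and 0.74 for the Hspa1a probe. By age, Dnajb1 had r = 0.46 at 8, 0.82 at 21 and 0.77 at 78 weeks.

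Hsph1 had r = 0.40 with Hspa1b (0.53 without those 2 arrays), and Hspb7 had r = -0.56 (-0.57), where 0.507% of all probes had r above 0.5 and 1.40% r under -0.5. Hspb1, also called inducible here, ran the other way, at r = -0.39 (-0.38), and 94.6% of all probes had a higher r. By age, Hsph1 had r = 0.60 at 8, 0.43 at 21 and 0.09 at 78 weeks, and Hspb1 0.34, -0.48 and -0.61. Hspb6 had -0.33, Hspb8 -0.32 and Cryab 0.01. Hspa8 and Hspa5, the constitutive Hsp70 genes, had 0.18 and 0.07. Among probes of named genes, the highest r after the Hspa1a probe belonged to Zxdc, Dnajb1, Tmtc2, Spry4, Tob2, Pdcd6ip, Snx24, Ppp1r10 and Frk (0.67 to 0.60). Of these, Tmtc2 was well above background on 0 arrays. Probes without a gene name were left out of this ranking. Among the small heat shock proteins r was highest for Hspb6 with Hspb8 (0.68), Hspb1 with Hspb6 (0.68) and Hspb1 with Hspb8 (0.57). Hspb7 had 0.31 to 0.47 with these 3, and Cryab 0.06 to 0.32 with the other 4. Hspa8 and Hspa5 had r = 0.57. Arrays share depth and quality, so these values describe these arrays only.

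**Figure D5:**
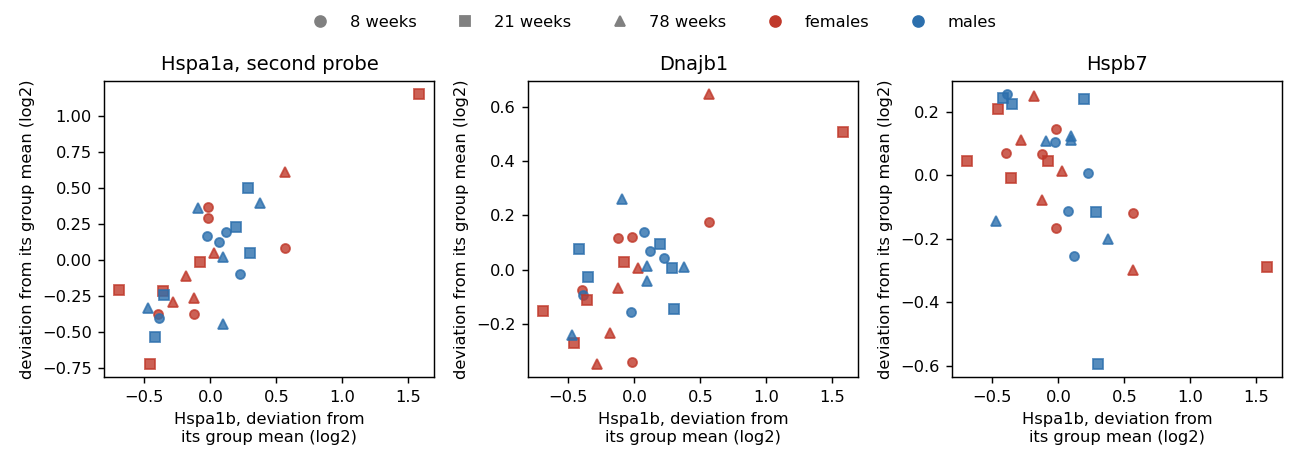
Deviation of each rat from the mean of its group, log2, for Hspa1b (x axis) against the second Hspa1a probe, Dnajb1 and Hspb7 (y axes). Circles are 8, squares 21 and triangles 78 weeks, red females and blue males (30 arrays). The Hspa1a probe and Dnajb1 rise along the axis (r = 0.81 and 0.67) and Hspb7 falls (r = -0.56), with 21-week female replicate 3 at the far right.

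HSF1 binds inverted repeats of the unit nGAAn, so the promoters of these genes were searched for the letters GAANNTTC or TTCNNGAA on either strand. Both motifs are their own reverse complement, and matches may overlap. In the RefSeq table (rat build GRCr8), 250 bases before to 50 after the start of transcription, 15.9% of 33469 promoters held at least 1 match and 2.28% at least 2. Of the 10 genes 8 had an entry, 6 of them with at least 1 match and 5 with at least 2. Hspa8 held 4, Hsph1 3, Hspb1, Hspb6 and Dnajb1 2 each, Hspb8 1, and Hspa5 and Hspb7 0. Hspa1a, which is not among the 10, held 0 at the 1 start listed for it, so a match near any other start would be missed. The 250 bases before the start are shown for Dnajb1, Hsph1 and Hspa5, which stood at higher values in 21-week females, and for Hspb7 and Hspb8, which were higher at 78 than at 8 weeks, with matches in capitals.
Dnajb1 (chr19:41431142-41431391, minus strand): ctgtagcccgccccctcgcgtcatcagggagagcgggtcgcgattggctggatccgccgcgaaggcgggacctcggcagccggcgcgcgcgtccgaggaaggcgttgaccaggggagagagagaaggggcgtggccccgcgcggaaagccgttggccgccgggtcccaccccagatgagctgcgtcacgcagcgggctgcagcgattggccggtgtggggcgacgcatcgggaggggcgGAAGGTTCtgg
Hsph1 (chr12:10427118-10427367, plus strand): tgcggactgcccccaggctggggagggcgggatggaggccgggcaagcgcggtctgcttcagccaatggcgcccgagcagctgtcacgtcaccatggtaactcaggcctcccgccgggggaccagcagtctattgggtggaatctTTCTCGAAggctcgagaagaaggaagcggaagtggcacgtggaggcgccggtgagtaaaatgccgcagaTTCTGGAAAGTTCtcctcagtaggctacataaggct
Hspa5 (chr3:38452766-38453015, plus strand): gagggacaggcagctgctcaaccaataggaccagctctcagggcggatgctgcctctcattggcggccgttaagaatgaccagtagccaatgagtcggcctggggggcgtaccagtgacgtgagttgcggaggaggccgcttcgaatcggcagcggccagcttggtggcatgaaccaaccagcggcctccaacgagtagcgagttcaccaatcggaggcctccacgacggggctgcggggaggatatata
Hspb7 (chr5:159010509-159010758, plus strand): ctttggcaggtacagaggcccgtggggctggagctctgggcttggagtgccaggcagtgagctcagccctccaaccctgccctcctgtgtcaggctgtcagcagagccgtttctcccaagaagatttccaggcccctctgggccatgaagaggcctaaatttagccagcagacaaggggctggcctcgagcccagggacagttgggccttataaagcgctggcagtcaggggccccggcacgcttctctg
Hspb8 (chr12:45837058-45837307, plus strand): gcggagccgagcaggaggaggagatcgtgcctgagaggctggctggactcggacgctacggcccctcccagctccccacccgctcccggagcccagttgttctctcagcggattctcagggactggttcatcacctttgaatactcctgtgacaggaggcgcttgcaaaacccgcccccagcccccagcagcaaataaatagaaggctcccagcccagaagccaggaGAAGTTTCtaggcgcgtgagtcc
The Dnajb1 matches began at positions -11 and 18 from the start, the second beyond the stretch shown. Those of Hsph1 began at -105, -36 and -31, and the 1 of Hspb8 at -23. A match is a run of letters and not a measured binding site.

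Other genes of the pathway were read from a list of 37 HSF1 and chaperone partner genes, 35 of them measured. By sex, 0 of 60 rows passed at 8, 21 or 78 weeks. For 78 against 8 weeks 13 of 76 probes were higher and 7 lower (5.94% and 4.89% of all probes). The median of the list was 0.01, against 0.13 over all probes and -0.01 over the 14867 probes well above background on all arrays. Hspa4l, an Hsp110 relative, was 0.92 higher (SE 0.07, limma adjusted p = 2.59e-10), Hsf4, another heat shock factor, 0.94 higher (SE 0.08, limma adjusted p = 3.43e-09) and Hspa1l, an Hsp70 chiefly of testis, 0.81 higher (SE 0.09, limma adjusted p = 2.15e-07). For 21 against 8 weeks 42 of 76 were higher and 4 lower (41.5% and 15.2% of all probes). For 78 against 21 weeks 4 of 76 were higher and 33 lower (14.0% and 18.3% of all probes). Among the 33 were 3 probes of Fkbp4, an Hsp90 co-chaperone (-0.76 to -0.89).

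Of the endoplasmic reticulum stress genes, the list to which Hspa5 belongs by function, 0 of 26 rows passed by sex at any age, and for 78 against 8 weeks 0 of 34 probes were higher and 1 lower (5.94% and 4.89% of all probes), that of the disulfide isomerase Pdia4 (-0.40, SE 0.09, limma adjusted p = 0.00224). Of the immediate early genes, which respond to stimuli within minutes, 6 of 16 probes were higher and 0 lower, for the same ages and the same shares of all probes. Jun was 0.48 higher (SE 0.07, limma adjusted p = 2.35e-05) and Fos 1.10 higher (SE 0.28, limma adjusted p = 0.00909). Of the circadian clock genes 8 of 21 probes were higher and 3 lower, beside those shares, with Arntl at -1.77 (SE 0.32, limma adjusted p = 0.000315) and Per2 at 1.14 (SE 0.23, limma adjusted p = 0.00144). For 21 against 8 weeks 9 of 34 endoplasmic reticulum stress probes were higher and 6 lower. Of 16 immediate early probes 7 were higher and 2 lower, and of 21 circadian probes 5 and 2 (41.5% and 15.2% of all probes). For 78 against 21 weeks these counts were 6 and 11, 5 and 3, and 5 and 3 (14.0% and 18.3% of all probes). The part of these lists in the age differences of Hspb7 and Hspb8 was not tested.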

How the data were processed

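The authors quantified each Cy3 array with Agilent Feature Extraction and deposited scanner files with intensity and processed signal per spot, and for each age a table of signal ratios in which every array was divided by its 75th percentile. The tables of the 3 ages were normalized separately. Rows were matched to scanner probes by value (99.7% within 0.002 log2, all 14 rows of the 10 genes). The 5 columns of 21-week males in the tables name the group but no rat.

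Sexes were compared at each age with limma 3.58.1 (R 4.3.3) on log2 of the table ratios, over all rows. Ages and sex by age were fitted on 30 arrays, on log2 processed signal less the 75th percentile of each array, over all probes. Slide was a random block, with a within-slide correlation of -0.04. Fewer probes were called by age without this block. They were 3635 against 4443 for 78 against 8 weeks, 21962 against 23270 for 21 against 8 weeks, and 12273 against 13217 for 78 against 21 weeks. P-values were adjusted by the Benjamini-Hochberg method and called at 0.05. Exact permutation tests enumerated 252 divisions of 10 rats. Scripts were tested on simulated data. The 5 rats per group and signal over background limit precision.

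The genes, the lists and the tests were chosen with earlier results of these data known. The brightest row or probe of a gene stands for it, and of other lists at most 5 genes with the smallest p were named per comparison.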

Additional observations from a re-analysis of the deposited data

Results flagged for a closer look

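In 4 of 60 groups of 5 rats, 1 rat lay far from the other 4 on the table scale, by Dixon's test at its 95% critical value, which chance meets in about 1 in 20 groups. Hspa1b had its highest 21-week female value, 2.62, in female replicate 3. Cryab had its lowest 8-week female value, 265, in female replicate 1. Hspb8 had its lowest 21-week female value, 4.45, in female replicate 3, the rat with the high Hspa1b. Hspb6 had its highest 78-week male value, 39.3, in male replicate 4.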

How the results depend on the processing

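Alternatives were another background correction, normalization, signal, filter, row choice, block or test, leaving out arrays, and, chosen after seeing the data, centring on probes or rows well above background. Of 640 sex differences of the 10 genes recomputed, 0 passed adjustment and 1 reversed, and 61 others with no call changed sign. Of 1120 sex by age values 1 reversed, and 43 others changed sign. Of 1130 age differences 23 lost and 18 gained a call, 12 reversed, and 5 others changed sign. The causes were not tested.

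The count of rows called by sex at 8 weeks (28) was 18 with normexp, 15 with slide as a fixed block, 5 with the replicate block and 13 to 28 on leaving out 1 array. At 21 weeks (14) it was 1 with normexp, 32 with median signal, 30 on rows well above background, 9 with the slide block, 4 with the replicate block and 8 to 22 without 1 array. At 78 weeks (0, with 1501 at an unadjusted p under 0.05 and 0 by the methods' t-test) it was 1 with quantile normalization, 9 without the 2 arrays with mismatched labels and 0 to 1 without 1 array. Rows higher in females were 9 of 28 at 8 weeks (9 of 18 with normexp, 11 of 25 with median signal) and 6 of 14 at 21 weeks (0 of 1 with normexp, 9 of 17 with scanner values). Replicate numbers did not pair the rats, with correlations of same-numbered rats from -0.25 to 0.37 and 1, 2 and 4 of 5 pairs closest to their own number at 8, 21 and 78 weeks. Under the replicate block the Hspa1b sex difference at 21 weeks was 1.71 log2 (limma adjusted p = 0.219), and no gene of the 10 changed its call by sex.

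Probes called for 78 against 8 weeks (4443) were 337 with normexp, 8147 with median signal and 3526 to 5718 without 1 array. For 21 against 8 weeks (23270) they were 832 with normexp, 12650 with quantile normalization, 12152 on probes well above background and 20649 to 24941 without 1 array. For 78 against 21 weeks (13217) they were 283 with normexp and 12115 to 15974 without 1 array. The percentage of age calls that were higher at the older age was 54.9 for 78 against 8 weeks (43.5 with quantile normalization and 71.5 with median signal), 73.2 for 21 against 8 weeks (24.04, 53.0 and 87.1 with normexp, quantile normalization and median signal) and 43.4 for 78 against 21 weeks (95.4 with normexp and 30.4 with median signal). Sex by age calls for 78 against 8 weeks (0, with 958 at an unadjusted p under 0.05 in limma) were 1 with quantile normalization, 1 on probes well above background and 0 to 1 without 1 array. For 21 against 8 weeks (1) they were 0 with normexp, 4 with quantile normalization, 2 without the 2 arrays and 0 to 2 without 1 array, and for 78 against 21 weeks (1) they were 0 with normexp and 0 without the 2 arrays.

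Reversed values with normexp were Hspb6 by sex at 21 weeks (0.28) and by sex and age for 78 against 21 weeks (-0.61), Hspb7 (-0.0832), Hspb8 (-0.0893) and Cryab (-0.261) for 78 against 8 weeks, and Hspa8 (-0.163), Hspb1 (-0.0225), Hspb6 (-0.0913) and Hspb7 (-0.137) for 21 against 8 weeks. With quantile normalization they were Cryab (-0.0180) for 21 against 8 weeks, and Hspa8 (0.0395), Hspa5 (0.273), Hspb6 (0.00104) and Cryab (0.0445) for 78 against 21 weeks. The median r of the 9 other genes with Hspa1b (0.01) was -0.17 without the 2 farthest arrays and -0.20 within 8 weeks.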
